A study of Monodelphis domestica with 2 samples.

Results

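The cadherin superfamily was followed through the cell types of V1, the primary visual area, in the opossum Monodelphis domestica. The genes were chosen by their symbols, under a rule set with earlier results of these data known. Every gene of the count files whose symbol begins with CDH or FAT and a digit, or with CDHR, PCDH, CELSR, DCHS or CLSTN, was taken, which gave 45 of 30800 genes, of which 11590 carried a symbol. The 45 comprised 4 type I classical cadherins, 13 type II cadherins, 5 other cadherins, 3 delta-1 and 5 delta-2 protocadherins, 3 other non-clustered protocadherins, 3 clustered protocadherins, 2 seven-pass cadherins, 4 giant cadherins and 3 calsyntenins. CDH2 (N-cadherin), CDH23, CDH26, CDHR3, CDHR4, CELSR1, DCHS2 and FAT1 are in the RefSeq gene table of another opossum assembly. They had no row under their symbols and were not analysed here, so the groups are incomplete.

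Nuclei came from 2 adult male opossums, aged 1.5 years (animal 1) and 2 years (animal 2), with no treatment and no genetic change named in the labels. V1 of both hemispheres was pooled within an animal and frozen, and Draq5-stained nuclei were sorted by fluorescence and made into 2 libraries per animal with the 10x Chromium 3′ kit, version 3. A different experimenter prepared each animal, so age, animal and handling cannot be told apart. The libraries held 55625042 to 69706055 UMIs (unique molecular identifiers, counted molecules), and 32764 nuclei carried 1 of 18 deposited subclass labels.

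The labels divide glutamatergic neurons into 4 intratelencephalic subclasses (IT_A to IT_D), which project within the cortex, and L5NP (near-projecting), L5PT (pyramidal tract), L6CT (corticothalamic) and L6b. GABAergic neurons are divided into Pvalb and Sst, known to arise from the medial ganglionic eminence (MGE), and Vip, Lamp5 and Frem1, grouped here as derived from the caudal ganglionic eminence (CGE). Non-neuronal nuclei are astrocytes (Astro), oligodendrocyte precursors (OPC), oligodendrocytes (OD), microglia (Micro) and endothelial cells (Endo). Of 33 defining markers, 29 had a symbol, and 24 of these were highest within their labelled group in both animals. The exceptions were FREM1, SOX6, FEZF2, BCL11B and TLE4, and all 29 had a higher mean in the labelled group than outside it. The subclasses were defined by the authors by clustering the same expression values, members included, so levels by subclass describe those clusters. Labels predicted within the deposited class from nuclei of the other animal, without the member genes, matched the deposited label in 31727 of the 32764 nuclei (96.8%).

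Cadherins are calcium-dependent adhesion proteins whose extracellular repeats bind partners on neighbouring cells, mostly the same cadherin. The cytoplasmic tails of classical type I and type II cadherins bind catenins and through them the actin cytoskeleton, whereas non-clustered delta protocadherins bind other regulators, including the WAVE complex. In the cortex, combinations of these proteins are known for sorting neurons into layers and for matching axons with their synaptic targets, seven-pass and giant cadherins for planar cell polarity, and calsyntenins for axonal transport and synapse formation.

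Levels are UMIs of a gene per 1000000 UMIs (CPM) in the summed nuclei of an animal and subclass, and pairs of values are given as animal 1 and animal 2. Because the counts include intronic reads and are not scaled to gene length, levels were compared between subclasses for 1 gene and never between genes. Of the 45 members, 35 reached 20 CPM and 26 reached 100 CPM in at least 1 subclass of both animals. The other 10 (CDH1, CDH15, CDH16, CDH17, CDH24, CDHR1, CDHR2, FAT2, PCDH18 and PCDHB1) stayed under 20 CPM in 1 or both animals. Members that stayed under 100 CPM are named for their levels after these were seen. The highest subclass of a gene is the one with the highest mean of both animals. Restriction to few subclasses was summarised by tau, which is 0 for equal levels in all 18 subclasses and 1 for a gene found in a single subclass. The median tau was 0.738 for the 35 members and 0.628 for all 10412 genes over the same 20 CPM floor. Computed from log2(CPM + 1) instead, tau had a median of 0.270 for the members and 0.250 for all genes. On the CPM scale the median tau was 0.814 for 12 type II cadherins, 0.598 for 3 delta-1 and 0.611 for 4 delta-2 protocadherins, 0.476 for 2 seven-pass cadherins, 0.441 for 2 clustered protocadherins and 0.401 for 3 calsyntenins. Of the type II cadherins, CDH5 passed the floor in a single subclass, which by itself gives a high tau. The highest subclass was the same in both animals for 25 of the 35 members (71.4%), against 62.9% of all genes.

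**Figure D1:**
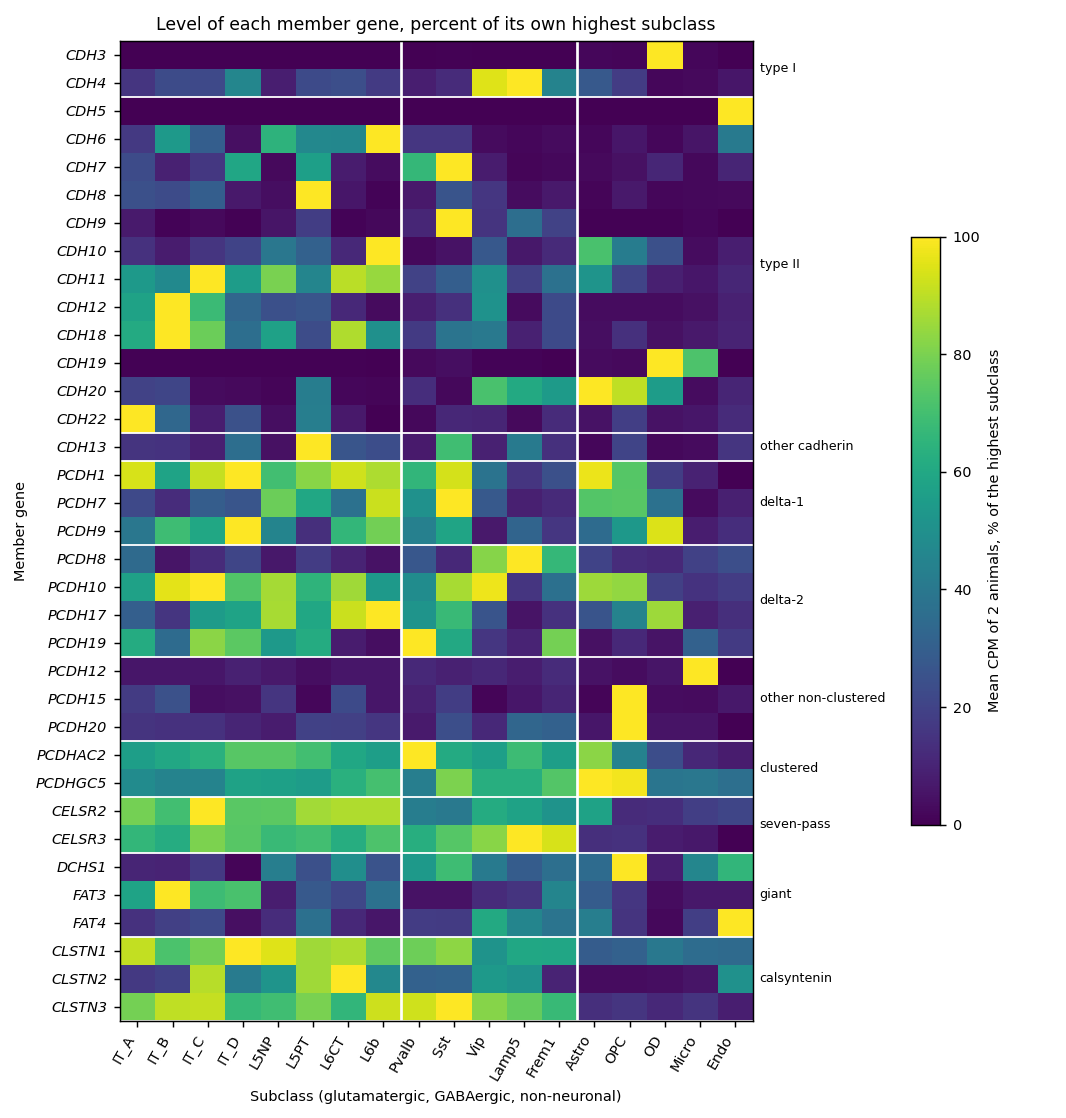
Mean CPM of the 2 animals for the 35 members that reached 20 CPM (rows, grouped by subfamily) in 18 subclasses (columns), as a percent of each gene's own highest subclass. Rows such as CDH3, CDH5, PCDH12 and PCDH15 have a single bright column, whereas CLSTN1 and CLSTN3 are bright across most neuronal columns. PCDHGC5 is brightest in astrocytes and OPC.

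Among type I cadherins, 2 of 4 reached 20 CPM. CDH3 (P-cadherin) stood at 143 and 125 CPM in oligodendrocytes and at 1.89 and 3.19 in microglia, the subclass with the next highest mean. It was therefore almost restricted to oligodendrocytes in both animals. Its tau of 0.996 adds nothing further, since CDH3 passed the 20 CPM floor in that subclass alone. CDH4 (R-cadherin, first described in retina) stood at 1325 and 1328 CPM in Lamp5 and 1297 and 1229 in Vip, close together and higher in Lamp5 in both animals. Its level was 593 and 590.1 in Frem1, 665 and 557 in IT_D and only 15.5 and 30.1 in oligodendrocytes. CDH1 (E-cadherin, the main epithelial cadherin) and CDH15 (M-cadherin, known from muscle) stayed under 20 CPM in every subclass.

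Type II cadherins peaked in many different subclasses. CDH8 peaked in L5PT at 2393 and 2035 CPM, against 798 and 525 in IT_C, the next subclass. Both animals placed L5PT far above every other subclass. CDH9, known for a role at hippocampal mossy fibre synapses, peaked in Sst at 1191 and 1300.5 CPM, followed by Lamp5 at 505 and 392. CDH7 was also highest in Sst, at 284 and 256 CPM, with 145 and 214 in Pvalb, 143 and 176 in IT_D and 144 and 160.5 in L5PT, and these last 3 overlapped between animals. CDH22 was highest in IT_A at 158 and 147 CPM, with 64.9 and 65.9 in L5PT next, and L6b held 0 UMIs in both animals. CDH6 was highest in L6b at 269 and 301 CPM, with 148 and 219.8 in L5NP and 163 and 143 in IT_B.

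CDH12 and CDH18 shared their highest subclass. CDH12 stood at 1335 and 1222 CPM in IT_B, 962 and 778 in IT_C and 766 and 705 in IT_A, an order without overlap between animals. CDH18 stood at 1455 and 1395 in IT_B, 1241 and 1271 in L6CT and 1114 and 1099 in IT_C. In L6CT the first of these genes was low, at 139.5 and 155 CPM, while the second was near its peak. CDH11 was highest in IT_C at 520.5 and 577 CPM and was still at 456 and 529 in L6CT and 434 and 494 in L6b, so the leading subclasses overlapped.

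CDH10 and CDH20 were high in glia as well as in neurons. CDH10 stood at 2206 and 3838 CPM in L6b, 2441 and 1879 in astrocytes and 1361 and 1171 in OPC. The L6b values came from 56 and 53 nuclei and differed between animals by more than those of the glia, so L6b and astrocytes overlapped. CDH20 stood at 1278 and 1256 CPM in astrocytes, 1151 and 1143 in OPC, 871 and 939 in Vip and 862 and 673 in Lamp5. Sst, by contrast, held 29.9 and 28.5 CPM, and IT_C held 28.4 and 42.1.

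Of the 12 type II cadherins over the floor, CDH19 and CDH5 had no neuronal subclass at 20 CPM. CDH19, known from glial and neural crest lineages, stood at 278 and 308 CPM in oligodendrocytes and 217 and 204 in microglia, and at 12.7 and 9.51 in Sst, the next subclass. In microglia the level of CDH19 was 71.9% of that in oligodendrocytes, whereas CDH3 was at 1.89% of its oligodendrocyte level there, and the oligodendrocyte markers MBP and MOG at 3.60% and 2.24%. The microglial sums rested on 115 and 128 UMIs of CDH19 in 332 and 391 nuclei. CDH5 (VE-cadherin, the adhesion protein of endothelial junctions) was at 82.5 and 104 CPM in endothelial nuclei and had a mean of at most 0.0627 CPM in every other subclass. That level rested on 4 and 6 UMIs in 29 and 36 nuclei.

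**Figure D2:**
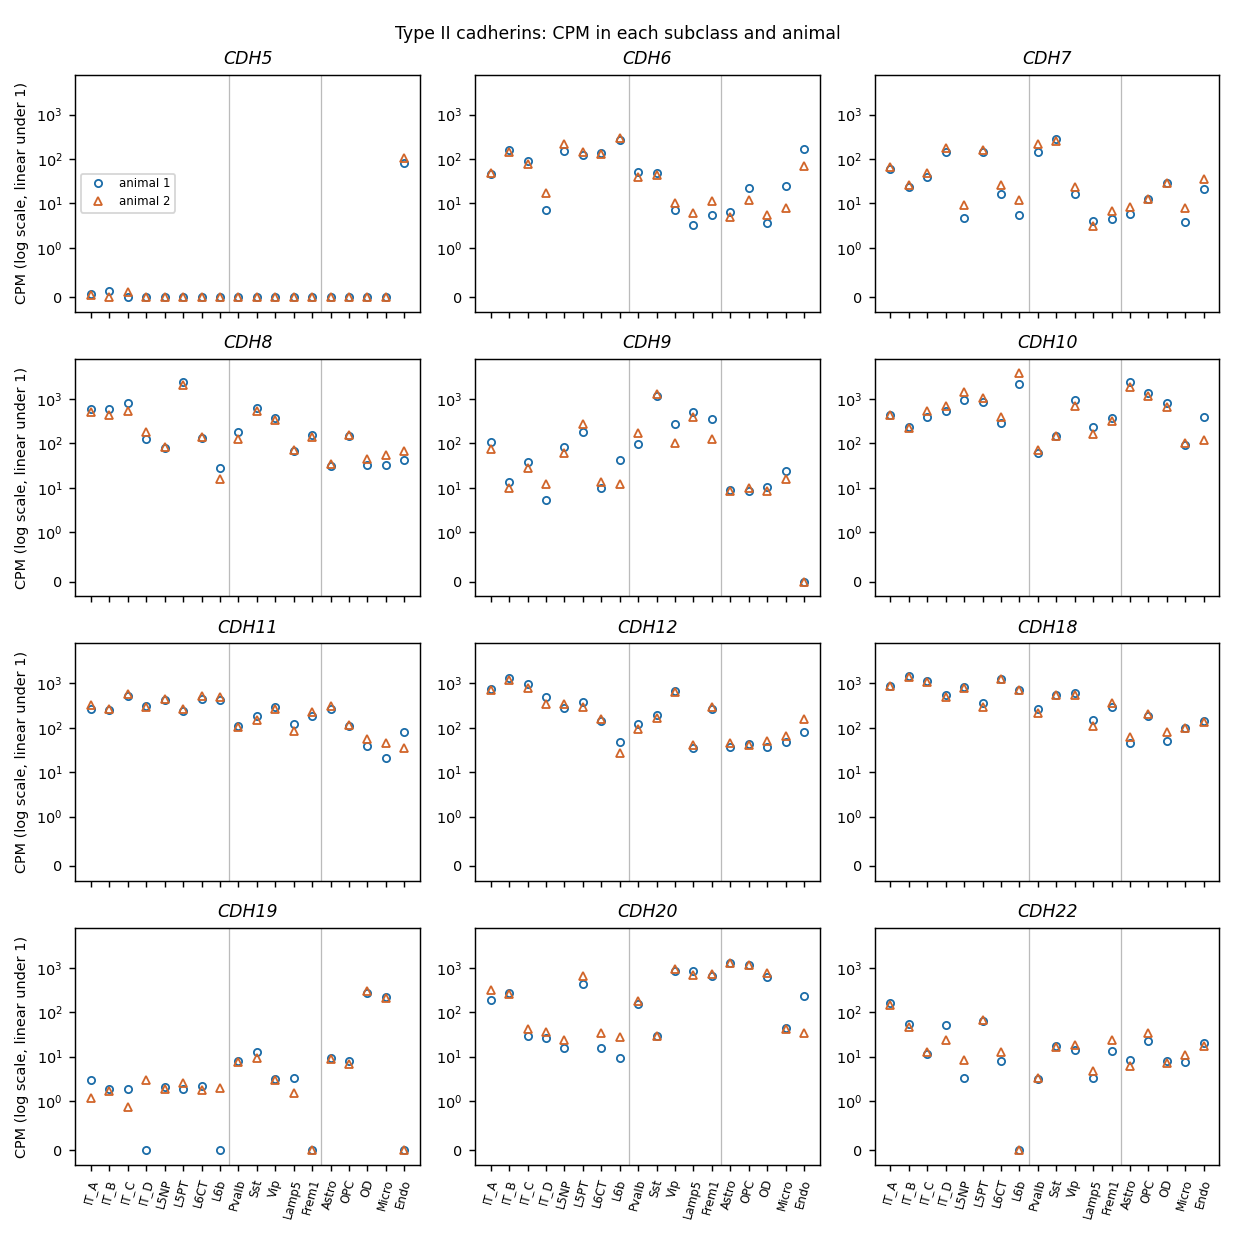
CPM of the 12 type II cadherins that reached 20 CPM, in each of 18 subclasses (x axis) on a scale that is logarithmic above 1 CPM and linear below it. Circles are animal 1 and triangles animal 2, and grey lines part glutamatergic, GABAergic and non-neuronal subclasses. Peaks differ from gene to gene, such as L5PT for CDH8, Sst for CDH9 and oligodendrocytes with microglia for CDH19.

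Of the other cadherins, only CDH13 reached 20 CPM. CDH13 (T-cadherin) is held in the membrane by a lipid anchor and lacks the cytoplasmic tail that binds catenins. It stood at 3146 and 2496 CPM in L5PT, 2147 and 1758 in Sst, 1363 and 944 in Lamp5 and 1035 and 996 in IT_D, and at 57.3 and 46.1 in astrocytes. The first 2 were separated in both animals, while Lamp5 and IT_D overlapped.

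Delta protocadherins were broader. PCDH9 (delta-1) stood at 1123 and 1116 CPM in IT_D and 1262 and 857 in oligodendrocytes, which overlapped, and fell to 71.1 and 83.9 in Vip. PCDH7 (delta-1) stood at 439 and 414 in Sst, 476 and 309 in L6b and 315 and 316 in OPC. PCDH17 (delta-2) was at 503 and 532 CPM in L6b, 544 and 408 in L6CT and 449 and 433 in oligodendrocytes, and at 37.2 and 17.8 in Lamp5. PCDH10 (delta-2), a protein that recruits the WAVE complex, was at 319.6 and 242 in IT_C and 265 and 283 in Vip, and at 47.7 and 39.5 in Lamp5. Lamp5 thus had the lowest neuronal mean of both delta-2 genes. PCDH19, a gene linked to epilepsy in people, was highest in Pvalb at 48.0 and 53.1 CPM. PCDH8, known as an activity-induced protocadherin, was highest in Lamp5 at 33.9 and 38.0.

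The 3 non-clustered protocadherins outside the delta groups had a median tau of 0.909, and PCDH12 and PCDH20 passed the 20 CPM floor in a single subclass, which by itself gives a high tau. PCDH15, a component of the tip links of hair cells, stood at 1729 and 1641 CPM in OPC, against 416 and 415 in IT_B, 424 and 331 in L6CT and 24.0 and 19.8 in astrocytes. PCDH20 was also highest in OPC, at 29.4 and 30.5 CPM. PCDH12, known from endothelial cells, was highest in microglia at 75.4 and 82.9 CPM (40 and 52 UMIs). Endothelial sums held 0 UMIs of PCDH12, a count that allows levels of up to 61.8 and 51.8 CPM (3 UMIs of each total, counting error only), so the endothelial limit lay below the microglial level and absence is not shown.

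Clustered protocadherins, seven-pass cadherins and calsyntenins had the lowest median tau values. PCDHAC2 and PCDHGC5 are C-type isoforms of the alpha and gamma clusters. Isoforms of a cluster are known to share their 3′ exons, so reads near the 3′ end may be split between them and the assignment is uncertain. PCDHAC2 was highest in Pvalb at 136 and 129.5 CPM, and PCDHGC5 in astrocytes at 339 and 359 and OPC at 332 and 353. CELSR2, a planar polarity protein, was highest in IT_C at 83.9 and 97.0 CPM and lowest in OPC at 10.9 and 11.2. CELSR3, known for axon guidance, stood at 38.8 and 39.5 in Lamp5 and 28.5 and 45.0 in Frem1, and the animals differed in which was higher. CLSTN1, which links cargo to kinesin, stood at 339.6 and 396 in IT_D and 355 and 345 in L5NP and at 103 and 111 in astrocytes. CLSTN3 was highest in Sst at 122 and 128 CPM. CLSTN2 was the exception in its family, with 359 and 349 CPM in L6CT, 375 and 258 in IT_C and 10.9 and 11.8 in OPC.

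FAT3, known for shaping the dendrites of retinal amacrine cells, stood at 2623 and 2256 CPM in IT_B, 1867 and 1605 in IT_D, 96.4 and 136 in Sst and 62.0 and 108 in oligodendrocytes. FAT4 and DCHS1 are known as a receptor and ligand pair. FAT4 stood at 136 and 175 CPM in Vip and 109.5 and 109 in astrocytes, and its endothelial value of 165 and 346 rested on 8 and 20 UMIs. DCHS1 had its highest mean in OPC, at 40.3 and 38.6 CPM, although in animal 2 the endothelial sum, with 0 and 3 UMIs in the animals, was higher at 0 and 51.8. In OPC FAT4 was at 38.4 and 38.6. In oligodendrocytes DCHS1 was at 3.48 and 3.14 CPM and FAT4 at 3.68 and 7.59, so both members of the pair were low there.

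Differences were tested with edgeR's quasi-likelihood test on counts summed per animal and subclass, with Benjamini-Hochberg adjustment over all genes tested and a threshold of 0.05. The 2 animals are the replicates, and in a sum fewer nuclei with the RNA and less RNA per nucleus cannot be told apart. A log2 fold change between groups of subclasses compares their mean log levels, so it can differ from the ratio of mean CPM. Any difference among the 13 neuronal subclasses was called for 38 of 40 members tested, against a background of 57.3% of all 16156 genes. Because members called and background depend on level, the share was also taken over genes with a mean of at least 20 CPM across the sums of the fit. There it was 27 of 28 members against 71.6% of 6360 genes. In each of the 12 pairwise comparisons the share of members called was above the background, at both sets of genes, and members share the same 4 libraries in all of them.

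**Figure D3:**
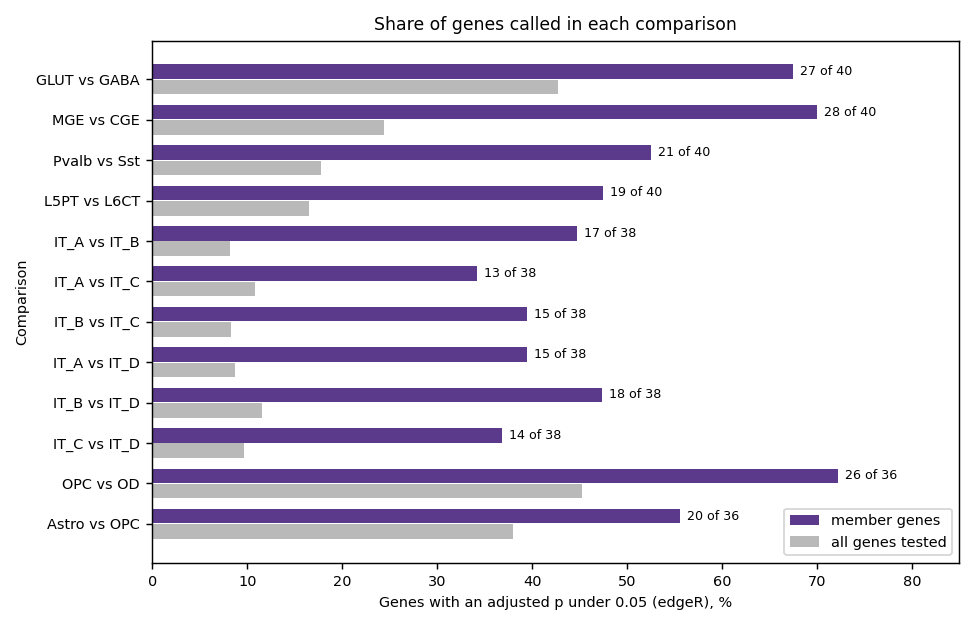
Percent of genes with an adjusted p under 0.05 in each of 12 comparisons, for the member genes (purple, with counts) and for all genes tested (grey). The purple bar is longer than the grey one in every comparison, with 28 of 40 members against 24.4% of all genes for MGE against CGE subclasses.

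Between the 8 glutamatergic and the 5 GABAergic subclasses, 27 of 40 members were called, 18 higher in glutamatergic and 9 higher in GABAergic neurons. The background was 42.8% of all genes (22.0% and 20.8% by direction), and the median absolute log2 fold change was 0.80 for the members and 0.35 for all genes. At a mean of 20 CPM or more, 20 of 28 members and 59.6% of genes were called. Of 12 type II cadherins 9 were called, 7 of them higher in glutamatergic neurons, and all 3 delta-1 protocadherins were higher there. CDH6 had a mean of 123 and 135 CPM over glutamatergic and 22.8 and 22.2 over GABAergic subclasses (log2 fold change 2.83 ± 0.13 (SE), adjusted p = 6.98e-14). FAT3 stood at 1263 and 1129 against 387 and 418 CPM (log2 fold change 1.85 ± 0.07 (SE), adjusted p = 2.14e-15), and CDH10 at 736 and 1074 against 357 and 281 (log2 fold change 1.65 ± 0.11 (SE), adjusted p = 7.49e-11). The means of these genes were higher on the glutamatergic side in both animals. For CDH10 single subclasses crossed, with 2206 and 3838 CPM in L6b, 429.5 and 444 in IT_A and 958 and 705 in the GABAergic Vip. Smaller differences in the same direction were found for CDH18 (1.43), CDH11 (1.30), PCDH17 (1.30), PCDH9 (1.17), CDH12 (1.12) and PCDH10 (0.77), all as log2 fold changes.

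Fewer members were higher in GABAergic neurons. CDH9 stood at 59.7 and 60.4 CPM in glutamatergic against 486 and 418 in GABAergic subclasses (log2 fold change -3.13 ± 0.18 (SE), adjusted p = 3.07e-12), and CDH20 at 122 and 173 against 511 and 512 (log2 fold change -2.07 ± 0.15 (SE), adjusted p = 1.29e-10). PCDH8 was at 5.86 and 4.29 against 21.2 and 20.1 (log2 fold change -1.88 ± 0.17 (SE), adjusted p = 6.98e-09). FAT4 (-1.23) and CDH4 (-0.65) had negative log2 fold changes too. The GABAergic means hide unlike subclasses, since CDH9 was at 1191 and 1300.5 CPM in Sst, 98.3 and 171 in Pvalb and 273 and 102 in Vip.

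Interneurons of the 2 origins differed in 28 of 40 members, 17 higher in MGE and 11 higher in CGE subclasses, against a background of 24.4% (14.4% and 9.98% by direction). Over genes with a mean of 20 CPM or more it was 22 of 28 members against 37.8%. The median absolute log2 fold change was 0.90 for the members and 0.33 for all genes. All 3 delta-1 protocadherins were higher in MGE subclasses, and of 5 delta-2 protocadherins, 3 were higher in MGE and 2 in CGE subclasses. CDH7 averaged 214 and 235 CPM over Pvalb and Sst and 8.36 and 11.3 over Vip, Lamp5 and Frem1 (log2 fold change 4.95 ± 0.22 (SE), adjusted p = 3.17e-13). The highest CGE subclass was Vip, at 16.6 and 23.8 CPM, so the groups did not overlap. PCDH17 stood at 339 and 279 against 82.4 and 74.9 (log2 fold change 2.29 ± 0.14 (SE), adjusted p = 2.80e-11), PCDH9 at 592 and 546 against 211 and 199.7 (log2 fold change 1.77 ± 0.07 (SE), adjusted p = 7.71e-14) and PCDH7 at 333 and 310.4 against 85.8 and 52.8 (log2 fold change 2.35 ± 0.21 (SE), adjusted p = 1.62e-08).

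In the other direction, CDH4 averaged 138 and 138 CPM in MGE and 1072 and 1049 in CGE subclasses (log2 fold change -2.83 ± 0.08 (SE), adjusted p = 5.26e-16). CDH20 averaged 91.6 and 102 against 791 and 785 (log2 fold change -3.45 ± 0.24 (SE), adjusted p = 2.81e-10). FAT3 stood at 114 and 126 against 569 and 613 (log2 fold change -2.01 ± 0.11 (SE), adjusted p = 7.47e-12), with Frem1 alone at 1092 and 1124 CPM. CDH10 (-1.96), PCDH8 (-2.20) and FAT4 (-1.39) were also higher in CGE subclasses by log2 fold change. The CGE subclasses were themselves unlike. CDH12 stood at 674 and 633 CPM in Vip and 35.5 and 40.3 in Lamp5, and PCDH10 at 265 and 283 in Vip and 47.7 and 39.5 in Lamp5. When every sum held the same 53 nuclei, 17 of 30 members were called against a background of 19.5% of 8340 genes, and DCHS1, CLSTN1, CDH11 and CELSR2 among the genes meeting the naming rule lost their call.

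**Figure D4:**
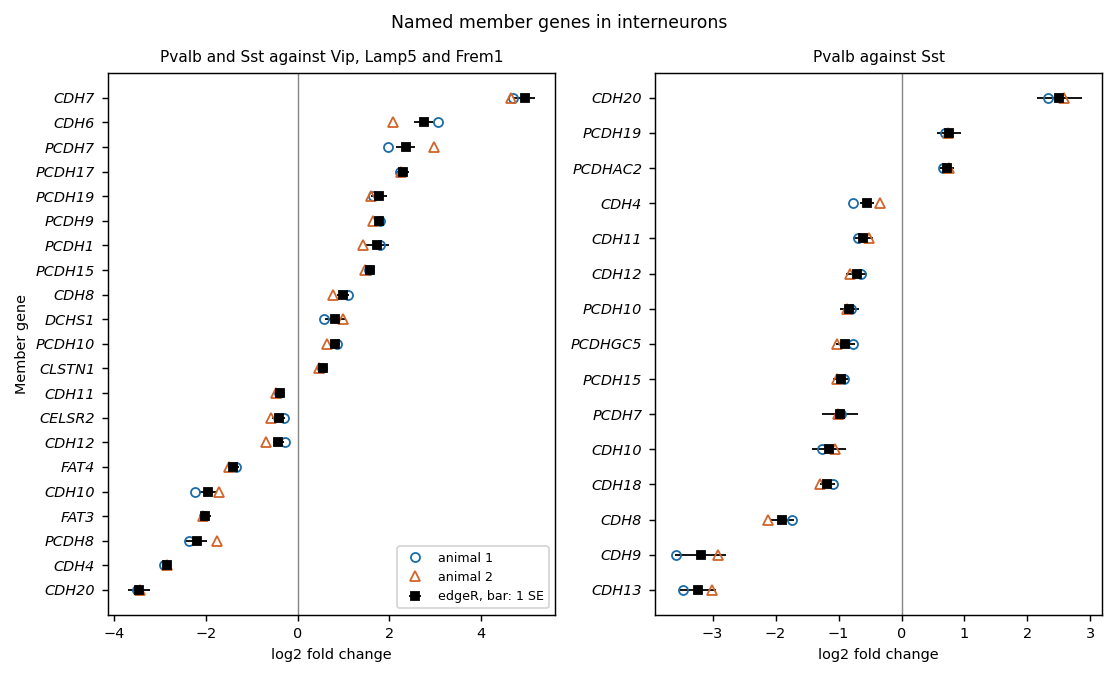
Log2 fold changes (x axis) of the member genes (y axis) that met the naming rule, for MGE against CGE subclasses (left) and Pvalb against Sst (right). Squares with bars are the edgeR estimate ± 1 SE, circles and triangles the values within animal 1 and animal 2. Both animals lie on the same side of 0 for every gene shown because the naming rule requires it. CDH7 at 4.95 and CDH20 at -3.45 are at the ends of the left panel.

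Within the MGE group, Pvalb and Sst differed in 21 of 40 members, 5 higher in Pvalb and 16 higher in Sst, against a background of 17.8% (8.78% and 8.98% by direction). With the animal as a replicate block the count was 23 members, 5 higher in Pvalb and 18 in Sst, against a background of 26.3% (13.4% and 12.9% by direction). At a mean of 20 CPM or more it was 17 of 28 members against 27.3%. Of 12 type II cadherins 8 were called, 7 higher in Sst. CDH13 stood at 193 and 217 CPM in Pvalb and 2147 and 1758 in Sst (log2 fold change -3.23 ± 0.29 (SE), adjusted p = 4.60e-08). CDH9 stood at 98.3 and 171 in Pvalb and 1191 and 1300.5 in Sst (log2 fold change -3.19 ± 0.40 (SE), adjusted p = 4.98e-06), and CDH8 at 183 and 123 in Pvalb and 614 and 538 in Sst (log2 fold change -1.90 ± 0.19 (SE), adjusted p = 2.45e-07). CDH18 (-1.18) and PCDH15 (-0.96) were also higher in Sst by log2 fold change. CDH20 had the opposite direction, at 153 and 176 in Pvalb and 29.9 and 28.5 in Sst (log2 fold change 2.51 ± 0.36 (SE), adjusted p = 2.38e-05). With 53 nuclei in every sum 7 of 30 members were called against a background of 11% (916 of 8340 genes), and PCDH19, PCDHAC2, CDH4, CDH12, PCDH10, PCDHGC5, PCDH7 and CDH10 lost theirs.

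The deposited types, finer clusters within a subclass, showed where some of these levels lay. They are given with no test, because the types were drawn from the same values. Of 35 members over the floor, 11 differed at least 4-fold between the highest and the lowest of the 6 Pvalb types, with the highest type above the lowest in both animals and at 100 CPM or more. The share over all genes was 3.3%, and among genes at 100 CPM in their highest type it was 11 of 21 members against 14.6%. CDH20 stood at 1202 and 1113 CPM in Pvalb_5 (110 and 99 nuclei) and at 56.7 and 57.8 in Pvalb_4, the lowest type. With Pvalb_5 left out, Pvalb as a whole held 54.1 and 86.7 CPM of CDH20, still above Sst in both animals. CDH7 stood at 339 and 308 in Pvalb_5 and 3.79 and 1.65 in Pvalb_6, while CDH6 stood at 6.57 and 1.50 in Pvalb_5 and 119 and 122 in Pvalb_6. PCDH7 was at 42.1 and 34.6 CPM in Pvalb_5 and 520.5 and 536 in Pvalb_6. CLSTN2 was at 11.8 and 6.01 in Pvalb_5 and 168 and 145 in Pvalb_1, and PCDH9 at 1129 and 963 in Pvalb_5 and 205 and 186 in Pvalb_4. Pvalb_5 and Pvalb_6 therefore held opposite ends of the range for CDH7, CDH6 and PCDH7.

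Among the 4 Sst types, 6 members differed at least 4-fold by the same rule, against 1.25% of all genes, and 6 of 19 members against 5.91% of genes at 100 CPM in their highest type. CDH13 stood at 3698 and 3218 CPM in Sst_1, 2019 and 1827 in Sst_2, 1293 and 904 in Sst_3 and 347 and 348 in Sst_4, with no overlap. CDH8 had its highest level in Sst_4, at 1232 and 1261 CPM, and its lowest in Sst_2, at 289 and 316. CDH9 was highest in Sst_3 at 2021 and 2492 CPM, against 594 and 688 in Sst_1, and CDH12 stood at 364 and 346 in Sst_3 and 54.7 and 37.9 in Sst_1. Among IT_A types, IT_A_4 was highest for CDH9 at 266 and 241 CPM against a mean of 36.1 CPM in IT_A_1, and for CDH13 at 1088 and 751 against 207 and 193 in IT_A_5.

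**Figure D5:**
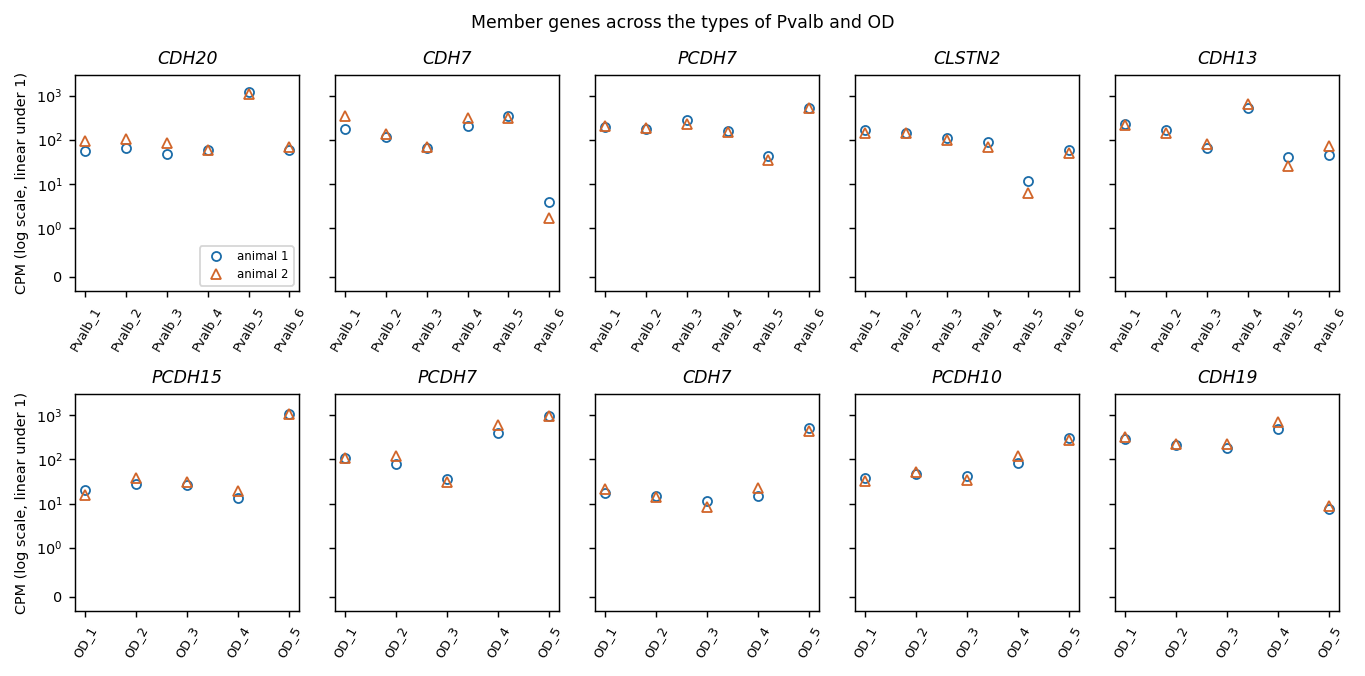
CPM of selected member genes in the 6 Pvalb types (top) and the 5 OD types (bottom), on a scale that is logarithmic above 1 CPM and linear below it. Circles are animal 1 and triangles animal 2. Pvalb_5 stands apart for CDH20 (mean 1157 CPM) and OD_5 for PCDH15 (mean 1081 CPM), in both animals.

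The deep-layer projection subclasses L5PT and L6CT differed in 19 of 40 members, 11 higher in L5PT and 8 in L6CT, against a background of 16.5% (8.84% and 7.66% by direction). With the animal as a replicate block the count was 24 members, 15 higher in L5PT and 9 in L6CT, against a background of 26.7% (14.2% and 12.5% by direction). Over genes with a mean of 20 CPM or more it was 16 of 28 members against 23.8%. Of 12 type II cadherins 9 were called, 7 higher in L5PT. CDH8 stood at 2393 and 2035 CPM in L5PT and 135 and 137 in L6CT (log2 fold change 4.08 ± 0.21 (SE), adjusted p = 1.32e-11). CDH20 stood at 425 and 652 in L5PT and 15.3 and 33.3 in L6CT (log2 fold change 4.52 ± 0.35 (SE), adjusted p = 4.35e-09), and CDH9 at 179 and 269 in L5PT and 9.78 and 13.2 in L6CT (log2 fold change 4.34 ± 0.44 (SE), adjusted p = 1.98e-07). CDH13 stood at 3146 and 2496 in L5PT and 990.4 and 489 in L6CT (log2 fold change 1.99 ± 0.28 (SE), adjusted p = 1.32e-05). PCDH15 was higher in L6CT, at 424 and 331 CPM against 28.7 and 29.2 in L5PT (log2 fold change -3.65 ± 0.13 (SE), adjusted p = 1.41e-13), as was PCDH9 at 758 and 723 against 154 and 152 (log2 fold change -2.22 ± 0.11 (SE), adjusted p = 1.19e-11). CDH18 (-1.87) and CDH11 (-0.92) were the type II cadherins with the L6CT direction by log2 fold change. FAT3 and PCDH17 lost their calls when every sum held 53 nuclei.

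The 4 IT subclasses differed in 24 of 38 members by the test of any difference, against a background of 19.0%. At a mean of 20 CPM or more it was 21 of 28 members against 26.9% of 6034 genes. With the animal as a replicate block the count was 32 of 38 members against a background of 40.7%, and in each pair of IT subclasses the block raised the background by a larger factor than the members' count. CDH6 was called in all 6 pairs of IT subclasses, 9 members were called in 5 pairs and 13 members in none. Of all genes, 2.01% were called in 5 or 6 pairs and 77.3% in none. The 13 included both seven-pass cadherins, all 3 clustered protocadherins, CLSTN1 and CLSTN3. CDH6 stood at 46.5 and 47.5 CPM in IT_A, 163 and 143 in IT_B, 92.2 and 77.2 in IT_C and 7.04 and 16.9 in IT_D, and these ranges did not overlap. With 58 nuclei in every sum, CDH6 lost its calls against IT_C in both IT_A and IT_B.

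IT_A and IT_C differed in 13 of 38 members, against a background of 10.8%. Of these, 5 were higher in IT_A and 8 in IT_C, with backgrounds of 5.87% and 4.98%. Over genes with a mean of 20 CPM or more it was 11 of 28 members against 14.7%. With the animal as a replicate block the count was 21 members, 7 higher in IT_A and 14 in IT_C, against a background of 28.9% (14.9% and 13.9% by direction), and all of the genes meeting the naming rule kept their call. CDH22 stood at 158 and 147 CPM in IT_A and 11.3 and 12.5 in IT_C (log2 fold change 3.70 ± 0.22 (SE), adjusted p = 2.95e-05). CDH20 stood at 185 and 318 in IT_A and 28.4 and 42.1 in IT_C (log2 fold change 2.87 ± 0.31 (SE), adjusted p = 4.76e-04), and PCDH15 at 303 and 287 in IT_A and 70.7 and 59.3 in IT_C (log2 fold change 2.21 ± 0.13 (SE), adjusted p = 2.18e-05). CLSTN2 had the opposite direction, at 65.6 and 53.2 CPM in IT_A and 375 and 258 in IT_C (log2 fold change -2.38 ± 0.25 (SE), adjusted p = 3.72e-04). CDH11 (-0.86), PCDH17 (-0.83) and PCDH10 (-0.78) were also higher in IT_C by log2 fold change. The call of CDH4 (log2 fold change -0.47 ± 0.13 (SE), adjusted p = 0.0427) was lost without the low-count filter, without the doublets and with 58 nuclei in every sum, and the last setting also ended the calls of PCDH9, CDH6, PCDH17 and CDH11. With 58 nuclei in every sum 6 of 28 members were called, 4 higher in IT_A and 2 in IT_C. The background there was 6.39% (3.72% and 2.67% by direction).

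IT_B differed from IT_A in 17 of 38 members (background 8.19%), 10 higher in IT_B and 7 in IT_A (backgrounds 4.49% and 3.7%). It differed from IT_C in 15 of 38 (background 8.31%), 8 higher in IT_B and 7 in IT_C (backgrounds 4.69% and 3.62%). At a mean of 20 CPM or more these were 14 of 28 members against 11.3% and 14 of 28 against 12.0%. With the block, 23 members differed from IT_A (12 higher in IT_B and 11 in IT_A) against a background of 23.6% (12.2% and 11.4% by direction), and 21 from IT_C (10 higher in IT_B and 11 in IT_C) against 21.7% (11.5% and 10.1%). FAT3 was higher in IT_B than in IT_A, at 2623 and 2256 against 1495 and 1331 CPM (log2 fold change -0.85 ± 0.12 (SE), adjusted p = 0.0023), and than in IT_C at 1828 and 1515 (log2 fold change 0.64 ± 0.12 (SE), adjusted p = 0.00968). CDH12 (-0.86 and 0.66) and CDH18 (-0.78 and 0.46) were likewise higher in IT_B in both comparisons, as log2 fold changes of IT_A over IT_B and IT_B over IT_C. CDH9 was low in IT_B, at 13.4 and 10.1 CPM against 108 and 76.5 in IT_A (log2 fold change 2.90 ± 0.24 (SE), adjusted p = 1.47e-04). PCDH17 was also low, at 82.5 and 75.7 CPM against 325 and 243 in IT_C (log2 fold change -1.74 ± 0.17 (SE), adjusted p = 3.62e-04). PCDH15 stood at 416 and 415 CPM in IT_B (log2 fold change 2.78 ± 0.13 (SE), adjusted p = 1.30e-05 over IT_C). With 58 nuclei in every sum, 8 of 28 members were called between IT_A and IT_B (background 5.69%) and 9 between IT_B and IT_C (background 5.93%).

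IT_D, with 58 and 315 nuclei, differed from IT_A in 15 of 38 members (background 8.71%), from IT_B in 18 (background 11.5%) and from IT_C in 14 (background 9.68%). In IT_D 6, 9 and 5 of these were higher, against backgrounds of 4.08%, 5.43% and 4.94%, and 9, 9 and 9 were lower, against 4.62%, 6.08% and 4.74%. Over genes with a mean of 20 CPM or more these were 15, 17 and 13 of 28 members, against 14.6%, 18.8% and 16.3%. With the block, 21, 27 and 18 members differed, against backgrounds of 18.5%, 20.9% and 17.7%, and 10, 14 and 8 of them were higher in IT_D, against 8.59%, 9.72% and 8.68%. CDH7, CDH4, PCDH9 and CDH13 were higher in IT_D in all 3 comparisons. CDH7 stood at 143 and 176 CPM in IT_D and 23.2 and 25.7 in IT_B (log2 fold change -2.67 ± 0.21 (SE), adjusted p = 6.10e-05). CDH4 stood at 665 and 557 in IT_D and 199 and 216 in IT_A (log2 fold change -1.54 ± 0.13 (SE), adjusted p = 1.32e-04). CDH6, CDH8, FAT4, CDH12 and CDH18 were lower in IT_D in all 3. With 58 nuclei in every sum, PCDH9 lost its call against IT_B. FAT4 stood at 12.3 and 8.14 CPM in IT_D and 64.6 and 48.1 in IT_C (log2 fold change 2.57 ± 0.28 (SE), adjusted p = 4.95e-04), and CDH8 at 127 and 183 in IT_D and 798 and 525 in IT_C (log2 fold change 2.00 ± 0.25 (SE), adjusted p = 0.00104).

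In the oligodendrocyte lineage, 26 of 36 members differed between OPC and oligodendrocytes, 19 higher in OPC and 7 in oligodendrocytes, against a background of 45.2% (24.8% and 20.4% by direction). At a mean of 20 CPM or more over the glial sums it was 19 of 22 members against 55.9%. The median absolute log2 fold change was 1.17 for the members and 0.66 for all genes. PCDH15 stood at 1729 and 1641 CPM in OPC and 50.7 and 54.7 in oligodendrocytes (log2 fold change 4.89 ± 0.18 (SE), adjusted p = 3.64e-11). CDH13 stood at 599.7 and 549 in OPC and 54.8 and 66.5 in oligodendrocytes (log2 fold change 3.13 ± 0.15 (SE), adjusted p = 3.06e-10), and CDH4 at 228 and 239 in OPC and 15.5 and 30.1 in oligodendrocytes (log2 fold change 3.27 ± 0.22 (SE), adjusted p = 9.43e-09). All 3 giant cadherins tested were higher in OPC, at log2 fold changes of 3.44 for DCHS1, 2.70 for FAT4 and 2.08 for FAT3. CDH3 was at 3.32 and 0.622 CPM in OPC and 143 and 125 in oligodendrocytes (log2 fold change -6.05 ± 0.34 (SE), adjusted p = 1.23e-09), and CDH19 at 8.06 and 6.84 in OPC and 278 and 308 in oligodendrocytes (log2 fold change -5.38 ± 0.19 (SE), adjusted p = 2.53e-11). PCDH17 (-1.04) and PCDH9 (-0.94) were higher in oligodendrocytes too, by log2 fold change.

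The smallest oligodendrocyte type, OD_5 (34 and 28 nuclei), differed from the other OD types in several of these genes. The share over all genes was not taken for OD types, so this is not read as particular to the members. PCDH15 stood at 1091 and 1071 CPM in OD_5 and 13.6 and 19.2 in OD_4, PCDH7 at 969 and 947 in OD_5 and 35.1 and 30.1 in OD_3, and CDH7 at 511 and 434 in OD_5 and 11.3 and 8.42 in OD_3. CDH19 was lowest there, at 7.63 and 8.85 CPM against 499 and 703 in OD_4. The OPC marker PDGFRA was at 15.3 and 26.6 CPM in OD_5, the highest of the OD types, and 995 and 991 in OPC_1. CSPG4 was at 0 in OD_5 but only at 28.2 and 28.2 CPM in OPC_1, so the 0 in so few nuclei does not show absence. The oligodendrocyte markers MBP, at 8672 and 7446, and MOG, at 564 and 452, were lowest in OD_5 among the OD types. In OD_1, the next lowest type for both, MBP was at 10161 and 10115 and MOG at 1122 and 1038. With OD_5 left out, PCDH15 in oligodendrocytes was 22.1 and 23.7 CPM and CDH7 was 15.1 and 17.0, close to the 12.8 and 12.4 of OPC. The call of CDH7 between OPC and oligodendrocytes (log2 fold change -1.30 ± 0.25 (SE), adjusted p = 5.43e-04) was lost with labels predicted without the member genes.

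Astrocytes and OPC differed in 20 of 36 members, 8 higher in astrocytes and 12 in OPC, against a background of 38.0% (18.8% and 19.1% by direction). Over genes with a mean of 20 CPM or more it was 13 of 22 members against 46.0%. PCDH15 had the most negative value, with 24.0 and 19.8 CPM in astrocytes (log2 fold change -6.24 ± 0.20 (SE), adjusted p = 2.14e-11), followed by PCDH20 (-3.97) and CDH13 (-3.45). CELSR2 was higher in astrocytes, at 46.8 and 57.5 CPM against 10.9 and 11.2 in OPC (log2 fold change 2.24 ± 0.28 (SE), adjusted p = 1.09e-05). FAT4 stood at 109.5 and 109 in astrocytes and 38.4 and 38.6 in OPC (log2 fold change 1.52 ± 0.20 (SE), adjusted p = 1.60e-05). CDH11 stood at 260.4 and 309.6 in astrocytes and 110.5 and 114 in OPC (log2 fold change 1.36 ± 0.19 (SE), adjusted p = 3.24e-05), while CDH20 was not called and stood at 1278 and 1256 in astrocytes and 1151 and 1143 in OPC.

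Partner genes were taken from 4 lists, of which 8 catenins and junction proteins, 11 planar polarity genes, 8 WAVE complex genes and 5 genes of cadherin-cleaving proteases were tested. Between glutamatergic and GABAergic neurons 7, 6, 5 and 0 of them were called (background 42.8%), and between OPC and oligodendrocytes 5, 9, 2 and 3 (background 45.2%). CTNND2 (delta-catenin, which binds classical cadherin tails) stood at 2295 and 2279 CPM in OPC and 129 and 169.9 in oligodendrocytes (log2 fold change 3.82 ± 0.15 (SE), adjusted p = 4.88e-11). CTNNA2 (the neuronal alpha-catenin) stood at 699.6 and 707 in L5PT and 257 and 283 in L6CT (log2 fold change 1.44 ± 0.13 (SE), adjusted p = 5.95e-08). AFDN (afadin, an actin-binding junction protein) stood at 182 and 177 CPM in Pvalb and 941 and 901 in Sst (log2 fold change -2.34 ± 0.20 (SE), adjusted p = 2.04e-08). CTNND1 (p120-catenin) was higher in IT_C, at 105 and 101 CPM against 44.5 and 38.5 in IT_A (log2 fold change -1.28 ± 0.15 (SE), adjusted p = 6.19e-04).

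Of the WAVE complex, WASF1 and WASF3 differed in opposite directions. WASF1 stood at 139 and 133 CPM in glutamatergic and 55.7 and 62.4 in GABAergic subclasses (log2 fold change 1.41 ± 0.07 (SE), adjusted p = 4.66e-13), and WASF3 at 64.0 and 57.6 in glutamatergic and 147 and 151 in GABAergic subclasses (log2 fold change -1.83 ± 0.08 (SE), adjusted p = 3.93e-14). Astrocytes held 18.5 and 16.2 CPM of WASF1 and 549 and 644 of WASF3. Of the planar polarity genes, FZD3 (a frizzled receptor that acts with seven-pass cadherins in axon guidance) stood at 150.2 and 153 in glutamatergic and 48.0 and 55.6 in GABAergic subclasses (log2 fold change 1.60 ± 0.07 (SE), adjusted p = 1.70e-14). FZD6 was at 141 and 193 CPM in astrocytes and 9.48 and 12.4 in OPC (log2 fold change 3.95 ± 0.26 (SE), adjusted p = 1.35e-08). ADAM10, the protease that sheds many cadherins, was higher in CGE subclasses, at 157 and 155 against 82.7 and 83.1 CPM (log2 fold change -0.71 ± 0.15 (SE), adjusted p = 1.00e-03).

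Several members are neighbours on their chromosome by the order of protein-coding genes in the RefSeq table of the mMonDom1.pri assembly, which is not the assembly of the counts. CDH12 and CDH18 lie next to each other, and their log2(CPM + 1) levels correlated at r = 0.735 over 18 subclasses. Other adjacent pairs had unlike patterns, with r = -0.0295 for CDH19 and CDH7, r = 0.209 for PCDH20 and PCDH9 and r = -0.346 for CDH11 and CDH5. CDH6 and CDH9, with 1 gene between them, had r = -0.123 and peaked in L6b and Sst. The most alike patterns of any 2 members were those of CELSR3 and CLSTN3, with r = 0.951, and the least alike those of FAT4 and PCDH9, with r = -0.744. These values are descriptions, since the 18 points share libraries and differ in depth, and CDH5 and several others are near 0 in most of them.

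Between the animals, with all nuclei pooled, 23 of 28 members at 20 CPM or more (82.1%) had libraries of animal 1 and animal 2 that did not overlap, against a background of 81.1% of all genes. The ratio of animal 2 to animal 1 ran from 0.739 for CDH13 to 1.20 for PCDH19, and 0 members reached a 2-fold difference, as against 46 of all 6571 genes. With 1 animal on each side there was no test. Within subclasses, 14 of 256 pairs of a gene and a subclass at 100 CPM or more in both animals differed at least 1.5-fold with libraries that did not overlap, 5 of them in IT_D, L6b or endothelial nuclei, which were few. The share over all genes was 2.92%. Among the rest, picked out after the values were seen, CDH9 was at 273 and 102 CPM in Vip and 361 and 127 in Frem1, higher in animal 1 in both. CDH20 was at 185 and 318 in IT_A and 425 and 652 in L5PT, higher in animal 2 in both. The makeup of these subclasses differed between animals, with 981 of 4301 and 2465 of 5563 IT_A nuclei in type IT_A_1 and 104 and 320 L5PT nuclei in L5PT_2. CDH20 was at 257 and 401 CPM in IT_A_1 but 111 and 109.7 in IT_A_2, and at 426 and 554 in L5PT_1 and 403 and 831 in L5PT_2.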

How the data were processed

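The authors deposited raw gene counts (UMIs from Cell Ranger, 6.1.1 in the submitters' processing notes and 7.1.0 in the matrix header, introns included) and, for each nucleus, subclass and type labels from their clustering. The deposited doublet score of each nucleus (Scrublet, a fraction between 0 and 1) was used only to leave out 798 labelled nuclei the authors marked as doublets, as an alternative. The count files held 36558 barcodes, with 16 to 30 shared between any 2 libraries. Reads had been aligned to the ASM229v1 assembly. The members, the lists and the comparisons were chosen with earlier results of these data known. Counts of the 32764 labelled nuclei were summed per animal and subclass, scaled to CPM and tested with edgeR 4.0.16 in R 4.3.3 (TMM, filterByExpr, quasi-likelihood test). The neuronal fit held 13 subclasses, the IT fit 4 and the glial fit 4, each with both animals, and p-values were adjusted over 16156, 16720 and 13656 genes. The main fits did not pair the sums. Sums of 1 animal do form pairs, since they share the animal, and their deviations correlated at a median of 0.172, 0.323 and 0.125 in the 3 fits.

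Genes were named where the adjusted p was under 0.05, the higher side had at least 20 CPM in both animals and both animals had the same direction, up to 12 in each direction (4 for partner genes), and for levels where a subclass had 100 CPM in both animals. Tau was computed on CPM. Alternatives were DESeq2 1.42.0, RLE size factors, no low-count filter, the animal as a block (printed where it moves a count of members or of all genes by over 1.5 times), equal nuclei per sum, no doublets and labels predicted without the members (scikit-learn 1.9.0, 15 neighbours). In a test on simulated data, edgeR recovered 47% of 2-fold and 74% of 4-fold changes between Pvalb and Sst, 34% and 87% between IT_A and IT_C and 56% and 83% between OPC and oligodendrocytes, with 6, 14 and 9 false calls. The simulation gave all subclasses 1 shared profile apart from the changed genes, and no animal effect. Rates in the data, where sums of 1 animal correlate, can differ. For counts of 0 a floor of 3 UMIs was used, which covers counting error only. Free RNA can add a low background to every subclass, so low levels were not read as expression. Of the 45 members, 41 were found in the RefSeq gene table.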

Additional observations from a re-analysis of the deposited data

Results flagged for a closer look

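In 5 cases a member at 100 CPM or more differed at least 1.5-fold between the animals, with libraries that did not overlap, and differed as much in the opposite direction in another subclass. None of these differences was tested, since each animal is 1 sample. The share over all genes was not taken for this rule, so the cases are not read as particular to the members. CDH10 was 1.74 times as high in animal 2 as in animal 1 in L6b, at 3964 and 3734 CPM in the libraries of animal 2 and 2143 and 2279 in those of animal 1. In Lamp5 the ratio for CDH10 was 0.665, with 180 and 136 against 257 and 221 CPM, and by type CDH10 was at 216 and 212 CPM in Lamp5_1 and 258 and 95.3 in Lamp5_2 of animal 1 and animal 2. CDH13 had a ratio of 1.93 in IT_C, at 317 and 344 CPM against 179 and 165. The IT_C nuclei were split unequally, with 281 of 1124 in type IT_C_1 in animal 1 and 976 of 1375 in animal 2, and CDH13 was at 340.1 and 398 CPM in IT_C_1 and 151 and 229.9 in IT_C_2 of animal 1 and animal 2. In L6CT the ratio for CDH13 was 0.494, with 465 and 511 CPM in animal 2 and 995 and 985 in animal 1, and CDH13 was lower in animal 2 in each of the 4 L6CT types. In endothelial nuclei the ratio for CDH13 was 1.62, at 427 and 657 against 355 and 320 CPM, from 29 and 36 nuclei.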

How the results depend on the processing

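Over 260 named values (52 genes), the direction held under every alternative run but in 1 case. PCDH7 between IT_A and IT_B had a log2 fold change of -0.33 with equal nuclei in every sum (adjusted p = 0.655, edgeR), the reverse of the value from all nuclei. Equal nuclei, by construction a smaller sample, ended 66 calls, that one included, DESeq2 4, RLE size factors 2, labels predicted without the members 6, no low-count filter 3 and leaving out doublets 5. With equal nuclei the members called were 17 between MGE and CGE subclasses (background 19.5%), 7 between Pvalb and Sst (11%), 8 between IT_A and IT_B (5.69%), 6 between IT_A and IT_C (6.39%) and 9 between IT_B and IT_C (5.93%), of 30 members tested in neurons and 28 in IT subclasses. With the animal as a replicate block, 21 members were called between IT_A and IT_C, and the block ended no named call and moved no other total of members by over 1.5 times. Between other IT subclasses it moved counts by direction by more, and between IT subclasses, L5PT and L6CT, and Pvalb and Sst the background, as given with those comparisons. Leaving out an animal leaves 1 sum per subclass and no test. The log2(CPM + 1) difference of the remaining animal was set against the edgeR estimate. It lay further away than the SD of the 2 animals for 101 values without animal 1 and 104 without animal 2. These counts also carry the difference between the 2 scales, so they do not measure the effect of an animal. None could reverse, because the naming rule asked for the same direction in both animals. The median tau was 0.743 to 0.758 with an animal left out, and 0.270 from log2(CPM + 1), where all genes had 0.250. The number of members at 100 CPM in a subclass was 26 to 27 with an animal left out. Depth limits the endothelial, L6b and microglial sums and the IT_D sum of animal 1, and members under 20 CPM cannot be ordered across subclasses.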
